A study of Zea mays with 6 samples.

Results

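Cellulose synthases (CesA proteins) sit in the plasma membrane as large complexes that take up UDP-glucose inside the cell and extrude glucan chains, which crystallise into cellulose microfibrils. Growing cells lay down a thin primary wall with one set of CesA isoforms. Cells such as xylem vessels and fibres later add a thick secondary wall with another set, which in maize comprises CesA10, CesA11 and CesA12. Brittle stalk2 (bk2) encodes a COBRA-like protein anchored at the cell surface, and maize plants that lack it have brittle stalks and leaves with less cellulose in their secondary walls.

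The set described here comprises 10 of the 110149 gene features in the transcript table, chosen by identifier: 6 primary wall genes, 3 secondary wall genes and bk2, together with the histone mark regions whose next gene is one of them. By the names that RefSeq pairs with the identifiers, the primary wall genes are CesA1 (GRMZM2G112336), CesA4 (GRMZM2G424832), CesA5 (GRMZM2G111642), CesA6 (GRMZM2G113137), CesA7 (GRMZM2G025231) and CesA9 (GRMZM2G018241). The secondary wall genes are CesA10 (GRMZM2G445905), CesA11 (GRMZM2G055795) and CesA12 (GRMZM2G142898), and bk2 is GRMZM2G109326. Of 43734 regions of H3 lysine 9 acetylation (H3K9ac), 16 lay next to a member, and of 32908 regions of H3 lysine 4 trimethylation (H3K4me3), 8 did.

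The study compared a maturing zone with the base of the third leaf of maize inbred B73, with no contrast of genotype or treatment. Plants had 16 h of light (130 µmol photons per square metre and second) at 25 °C and 8 h of dark at 20 °C, and were harvested 13 to 14 days after sowing. The maturing zone was a piece of 4 cm cut midway along the lit blade. From those leaves, severed 0.5 cm over the soil, the bottom 1 to 2 cm, still in the dark, served as base. Poly(A) RNA was sequenced from pools of 6 plants, and chromatin from pools of 10 plants was precipitated for each mark. The transcript table separates libraries A and B of each zone, whereas the mark tables give the authors' average per zone, so mark values carry no error. Each piece of tissue mixes cell types, so fewer cells of a type and less RNA per cell cannot be told apart.

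The RNA libraries held 18325106 to 50657759 exon reads. All 3 mesophyll markers and all 3 bundle sheath markers of C4 photosynthesis were higher in the maturing zone, and both replication helicase genes tested as markers of dividing cells were lower, as the zone labels imply. Unless given otherwise, levels are reads scaled to library size and to the trimmed mean of M values between libraries (TMM CPM), and log2 differences subtract the base from the maturing zone. Scaling by library totals moved the median difference of all genes by -1.14 and DESeq2 size factors by 0.11, so every direction below is relative to TMM scaling.

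Primary wall synthases were mostly lower in the maturing zone. Of the 6 genes, CesA1, CesA5 and CesA9 fell and none rose in edgeR's quasi-likelihood test (adjusted p under 0.05), where 15.8% of the 26787 genes tested were called lower, 13.5% higher and 29.2% either way. The median difference of the 6 was -1.82, against -0.13 over all genes tested. CesA4 and CesA6 were lower without passing the test, and CesA7 stood at nearly equal means in both zones.

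CesA9 had the largest difference of the set. It stood at 11.6 and 11.7 TMM CPM in maturing zone libraries A and B, against 80.5 and 114.1 in base libraries A and B. The zones lay far apart and the maturing zone libraries were almost equal, with a log2 difference of -3.06 ± 0.50 (SE; n = 2 maturing zone and 2 base libraries, edgeR adjusted p = 0.0161). This call held with each of the 4 libraries left out in turn. The authors' deposited table lists CesA9 at a signed fold of -9.01 with an FDR of 0.00277.

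CesA5 had 21.4 and 17.8 TMM CPM in the maturing zone, against 136.1 and 129.2 in the base. Both base libraries were several-fold above both maturing zone libraries, and the log2 difference was -2.76 ± 0.49 (edgeR adjusted p = 0.018). Left without maturing zone library A or B, the adjusted p was 0.07 and 0.0748.

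CesA1 had 41.9 and 24.0 TMM CPM in the maturing zone, against 162.6 and 118.4 in the base, a log2 difference of -2.09 ± 0.55 (edgeR adjusted p = 0.0422). Library A was the higher of the pair in both zones, and the zones did not overlap. CesA1 was called with all 4 libraries, but with any of them left out its edgeR adjusted p was between 0.0517 and 0.246. The authors' deposited table gives it an FDR of 0.0751, above the 0.05 used here.

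CesA6 was the most abundant member in the base. It stood at 197.5 and 143.0 TMM CPM in the maturing zone, against 468.9 and 526.6 in the base, a log2 difference of -1.55 ± 0.58 (edgeR adjusted p = 0.1). CesA4 had 42.9 and 44.8 TMM CPM in the maturing zone, against 98.2 and 147.1 in the base, a difference of -1.48 ± 0.50 (edgeR adjusted p = 0.0748). In neither gene did the zones overlap, and the same held for 6 of the 9 members with reads, a separation that 36.9% of all genes tested showed in the lower direction and 67.7% in either direction.

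CesA7 was the exception among the primary wall genes. Its levels were 281.9 and 134.7 TMM CPM in the maturing zone, against 236.0 and 172.8 in the base, so that both base libraries lay between the maturing zone libraries. The log2 difference was 0.03 ± 0.61 (edgeR adjusted p = 0.978), and its sign turned to -1.06 under library totals.

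**Figure D1:**
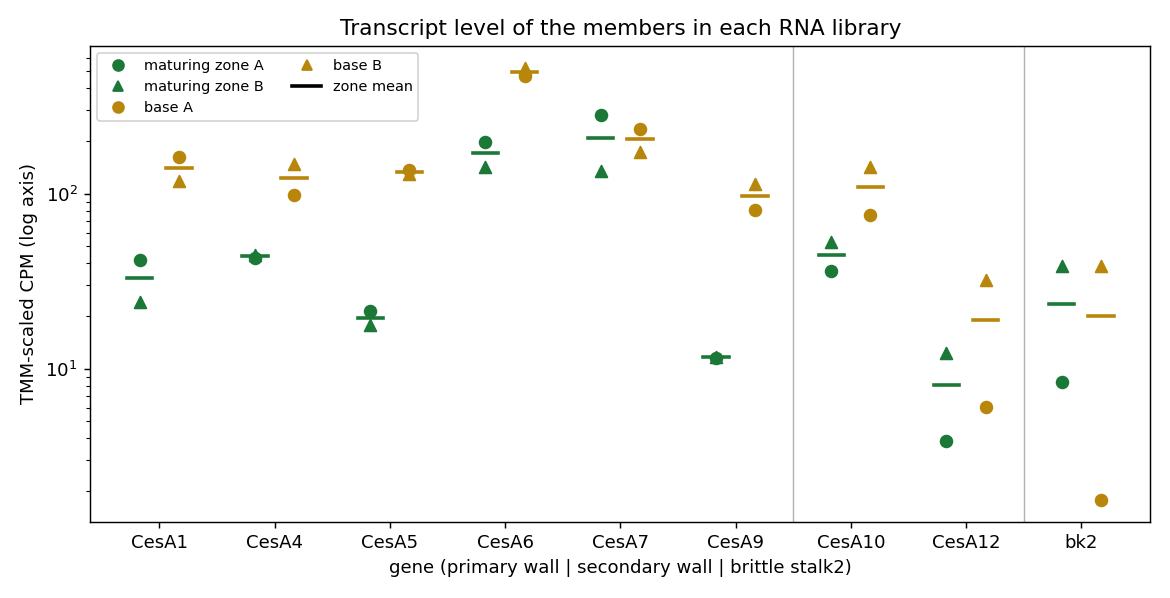
Transcript level of the 9 members with reads, as TMM-scaled CPM on a log axis, in maturing zone (green, left of each pair) and base libraries (gold, right); circles are library A, triangles library B, bars the zone mean. The maturing zone stands below the base in every primary wall gene but CesA7, whose zones overlap, and bk2 and CesA12 lie higher in the B libraries of both zones.

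The secondary wall genes and bk2 gave 0 calls among the 3 genes tested, in edgeR and in DESeq2, which called 20.2% of all genes lower and 19.1% higher. At an unadjusted p under 0.05 edgeR also called 0 of them. CesA10, CesA12 and bk2 differed by -1.30 ± 0.56, -1.24 ± 0.99 and 0.22 ± 1.40 (SE), and none passed the test. The error of CesA10 was close to the 0.55 of CesA1, which was called at a larger difference of -2.09.

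CesA10 had 36.0 and 53.1 TMM CPM in the maturing zone, against 75.7 and 143.0 in the base, with a log2 difference of -1.30 ± 0.56 (edgeR adjusted p = 0.138). The base libraries were both higher, though base library A exceeded maturing zone library B by less than the base libraries differed from each other. RefSeq lists this feature under 2 neighbouring genes, cesa10 and csu1007(eif4F). Its exon length implied by the deposited RPKM, about 5112 bases, was above the 3880 to 4689 bases of the other CesA members with reads. Reads and mark regions of CesA10 may therefore include those of the neighbouring gene, and the share of each was not tested.

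CesA12 had 3.88 and 12.3 TMM CPM in the maturing zone, against 6.09 and 32.0 in the base. The zones overlapped, because maturing zone library B was above base library A. The log2 difference was -1.24 ± 0.99 (edgeR adjusted p = 0.385), and it turned to 0.37 when base library B was left out.

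CesA11 had 0 reads in all 4 libraries. A count of 0 allows up to 3 reads per library, which is 0.0592 and 0.164 CPM in maturing zone libraries A and B and 0.0678 and 0.124 CPM in base libraries A and B, for counting error only. RefSeq lists the same gene under a second identifier of the table, GRMZM2G037413, which also had 0 reads. CesA11 had no region of either mark, so nothing more can be said of it from these files.

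Levels of bk2 split by library and not by zone. It had 8.40 and 38.6 TMM CPM in the maturing zone, against 1.78 and 38.5 in the base, where the B libraries of both zones were nearly equal and both A libraries were low. The log2 difference was 0.22 ± 1.40 (edgeR adjusted p = 0.921). Left without base library B it was 3.68 with an adjusted p of 0.0167, and left without base library A it was -0.72 with 0.637. In none of the other alternatives was bk2 called.

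Treating same-lettered libraries as pairs narrowed the errors. The paired fit leaves 1 residual degree of freedom per gene, so its errors and p-values lean on variance pooled over genes. With the replicate block edgeR called 7 of the 9 members lower and none higher, but that fit called 40.4% of all genes lower, 35.6% higher and 76% in either direction. CesA4 then stood at -1.45 ± 0.22 (adjusted p = 0.000382), CesA6 at -1.56 ± 0.31 (0.00197), CesA10 at -1.25 ± 0.20 (0.000588) and CesA12 at -1.01 ± 0.22 (0.00331). CesA7 and bk2 were not called in the blocked edgeR fit either, at -0.05 ± 0.27 and 1.04 ± 0.45 (adjusted p = 0.872 and 0.0624).

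**Figure D2:**
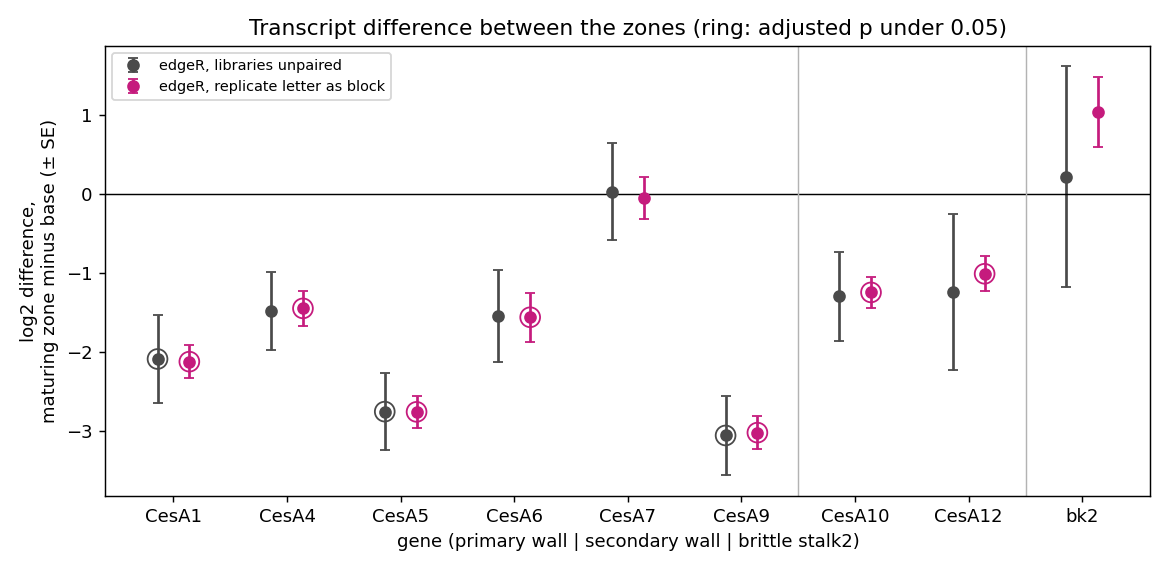
Log2 difference of each member, maturing zone minus base, with its standard error, from edgeR without pairing (grey) and with the replicate letter as a block (pink); a ring marks an adjusted p under 0.05. CesA1, CesA5 and CesA9 are ringed in both fits, and the error of bk2 spans 0 in the unpaired fit.

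The B libraries held more transcript of CesA10, CesA12 and bk2 than the A libraries in both zones. Library B over library A was 4.59 in the maturing zone and 21.6 in the base for bk2, 3.18 and 5.25 for CesA12, and 1.47 and 1.89 for CesA10. A base ratio as large as that of bk2 occurred in 0.0112% of the genes tested, and one as large as that of CesA12 in 2.6%. For CesA10 the base share was 22.9%. In the maturing zone the shares were 2.11% for bk2, 7.82% for CesA12 and 28.8% for CesA10, so ratios like those of CesA10 were common. Each share counts the member itself. The shares and the medians over all genes used ratios with 0.5 CPM added to each library, unlike the ratios printed for members. The 6 primary wall genes ranged from 0.478 (CesA7) to 1.04 (CesA4) in the maturing zone and from 0.728 (CesA1) to 1.5 (CesA4) in the base, and the median of all genes was 0.979 in the maturing zone and 1.04 in the base.

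Markers of other cells also differed between the letters, in no single direction. SUT1, the single phloem marker, had 991.5 and 2143 TMM CPM in maturing zone libraries A and B, against 7.94 and 26.1 in base libraries A and B. The summed level of the 2 markers of dividing cells was 0.173 and 0.296 in the maturing zone, from 1 to 5 reads per gene and library, against 124.0 and 60.2 in the base. The 3 bundle sheath markers summed to 36101 and 57220 in the maturing zone, against 157.5 and 463.6 in the base. The base sum was mostly Rubisco small subunit, at 130.4 in library A and 458.5 in library B. The other 2 markers of that list were lower in base library B, NADP-ME at 19.5 in A and 4.15 in B and PEPCK at 7.69 in A and 0.945 in B, so the list had no common direction between the letters. The 3 mesophyll markers summed to 62888 and 95361 in the maturing zone, against 78.0 and 79.4 in the base. No marker was at 0 reads in any library. The part of these markers in the levels of bk2, CesA12 and the primary wall genes was not tested.

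**Figure D3:**
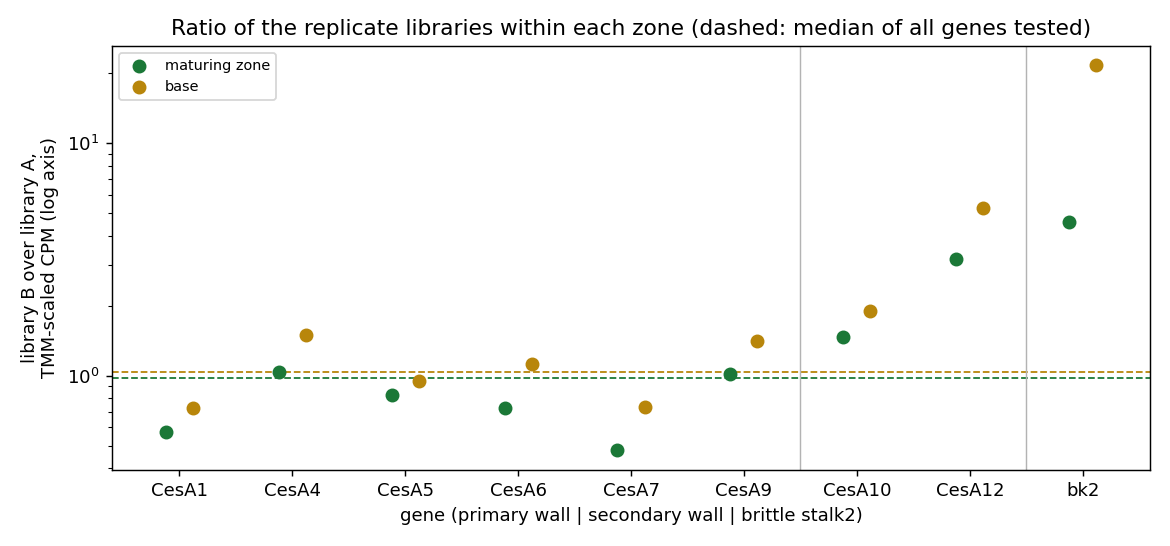
Library B over library A in TMM-scaled CPM, on a log axis, for each member in the maturing zone (green, left) and the base (gold, right); dashed lines give the median of all genes tested. The ratio is above 3 for CesA12 and bk2 in both zones and at or below 1.5 for every primary wall gene.

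Levels between genes were compared per length, in the authors' deposited RPKM. In the maturing zone CesA7 averaged 33.7 ± 23.4 and CesA6 27.7 ± 12.5 RPKM (SD, n = 2), and the libraries of these genes overlapped. CesA4 (6.67 RPKM), bk2 (6.14), CesA10 (5.75), CesA1 (5.73) and CesA5 (2.90) followed, overlapping one after the other. Of these, CesA1 stood over CesA5 within each library, at 8.14 and 3.32 RPKM in A and B against 3.64 and 2.15. CesA9 (1.79) and CesA12 (1.30) came last. Neighbours in this order whose libraries did not overlap were CesA6 and CesA4, and CesA5 and CesA9, that pair narrowly, with CesA5 no lower than 2.15 RPKM and CesA9 no higher than 2.08.

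In the base CesA6 led with 175.2 ± 7.95 RPKM, clear of CesA7 at 70.8 ± 24.1. CesA7, CesA1 (53.0 RPKM), CesA5 (43.3) and CesA4 (41.1) overlapped one after the other. Within each base library, however, CesA7 stood over CesA1 and CesA1 over CesA5. They had 87.81, 65.96 and 48.25 RPKM in library A and 53.7, 40.12 and 38.27 in library B. CesA5 and CesA4 changed order between the libraries. CesA9 (33.0) and CesA10 (31.7) also overlapped, and bk2 (12.1 ± 15.4) and CesA12 (7.03 ± 6.26) were lowest with libraries that overlapped each other.

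The make-up of the summed transcripts of the 6 primary wall members differed between the zones. That sum leaves out the further cellulose synthases described below. Among those, CesA2 had 147.74 and 74.75 RPKM and CesA8 87.96 and 118.19 in base libraries A and B. CesA7 made up 46.4% and 35.2% of the summed RPKM of the 6 genes in the maturing zone, against 19.5% and 14.0% in the base. CesA6 made up 33.7% and 38.7% in the maturing zone, against 40.2% and 44.3% in the base. CesA1, CesA5 and CesA9 each had a smaller share in both maturing zone libraries than in either base library. CesA5, for example, held 3.36% and 4.42% in the maturing zone, against 10.7% and 9.99% in the base. The share of CesA4 overlapped between the zones, at 7.07% and 11.7% in the maturing zone against 8.13% and 11.9% in the base.

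The secondary wall share of the members' CesA RPKM followed the library letter. Its sum holds the 6 primary wall genes, CesA10 and CesA12, and leaves out the further cellulose synthases described below. CesA10 and CesA12 together made up 5.60% and 13.7% in maturing zone libraries A and B, against 5.71% and 11.6% in base libraries A and B. The zones overlapped in this share, and both B libraries were higher than both A libraries. CesA10, whose reads may include those of a neighbouring gene, held most of the secondary wall sum in every library. It had 5.62 of 6.42 RPKM in maturing zone library A and 24.61 of 27.22 in base library A.

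H3K9ac, a mark of active promoters, was lower at every primary wall gene in the maturing zone. All 11 regions next to these 6 genes were lower at a deposited FDR under 0.05, where 33.8% of all H3K9ac regions were lower and 33% higher. Taking the region of highest signal per gene, 6 of 6 were lower, against 34.2% lower and 29.4% higher over all genes with a region. These regions were 703 to 1401 bases wide, and each overlapped an H3K4me3 region of the same gene over at least 83.6% of its length. All positions are on the B73 RefGen_v3 build as the files give them, without gene models, so the part of the gene that a region covers is not given here.

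CesA1 showed the largest loss. Its region at chr8:79738558-79739261 averaged 126.4 normalized reads in the maturing zone and 449.3 in the base in the authors' deposited table, a signed fold of -3.55 (FDR 4.05e-23). CesA5 followed, with 285.4 in the maturing zone and 907.1 in the base at chr1:290671744-290672588, a signed fold of -3.18 in the authors' deposited table (FDR 1.31e-21).

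CesA7 lost H3K9ac although its transcript level was nearly equal in the zones. Its highest region, at chr7:37041298-37042699, averaged 411.5 in the maturing zone and 972.8 in the base, a signed fold of -2.36 in the authors' deposited table (FDR 2.96e-18). Another 3 regions assigned to CesA7 lay 45402 to 48036 bases from it, at averages of 25.7 to 108.6 in the maturing zone and 81.6 to 159.1 in the base. All 3 were lower as well.

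CesA9 averaged 341.2 in the maturing zone and 780.0 in the base at chr2:161757796-161758606, a signed fold of -2.29 in the authors' deposited table. CesA4 averaged 387.0 in the maturing zone and 782.3 in the base at chr7:18625543-18626265, a signed fold of -2.02 in the authors' deposited table. The 2 genes had almost the same base average, and their losses were alike in size, while their transcript differences were -3.06 and -1.48.

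CesA6 carried the strongest acetylation of the set and, among the highest regions of the 6 genes, the smallest loss. Its highest region, at chr1:296334171-296335295, averaged 1094 in the maturing zone and 1575 in the base, a signed fold of -1.44 in the authors' deposited table (FDR 5.94e-05). The maturing zone value exceeded that of 99.5% of all H3K9ac regions and the base value that of 99.9%. Both weaker regions of CesA6, within 3159 bases of the first, were lower by signed folds of -1.5 and -1.53 in the authors' deposited table.

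Among the secondary wall genes and bk2, no fall in acetylation was called. CesA10 averaged 381.4 in the maturing zone and 409.0 in the base at chr1:234316291-234316937, with a deposited FDR of 0.545. The single region of bk2, at chr9:123497626-123498391, averaged 77.7 in the maturing zone and 85.1 in the base (deposited FDR 0.528), and its base value exceeded that of 23.9% of all H3K9ac regions.

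Regions assigned to CesA12 gained H3K9ac. All 3 were higher in the maturing zone, where the CesA12 transcript was not called, stood lower in the means and was called lower with the replicate block. Their base averages exceeded those of 13.8% to 14.6% of all H3K9ac regions, so the folds stand on low base values. Distances of these regions from the gene are not given here. The highest, at chr7:117527174-117527886, averaged 227.5 in the maturing zone and 52.1 in the base, a signed fold of 4.37 in the authors' deposited table (FDR 3.60e-24). The other 2, 21045 and 22171 bases away, had signed folds of 2.35 and 1.66 in the authors' deposited table, with 123.5 and 90.8 reads in the maturing zone against 52.6 and 54.8 in the base.

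**Figure D4:**
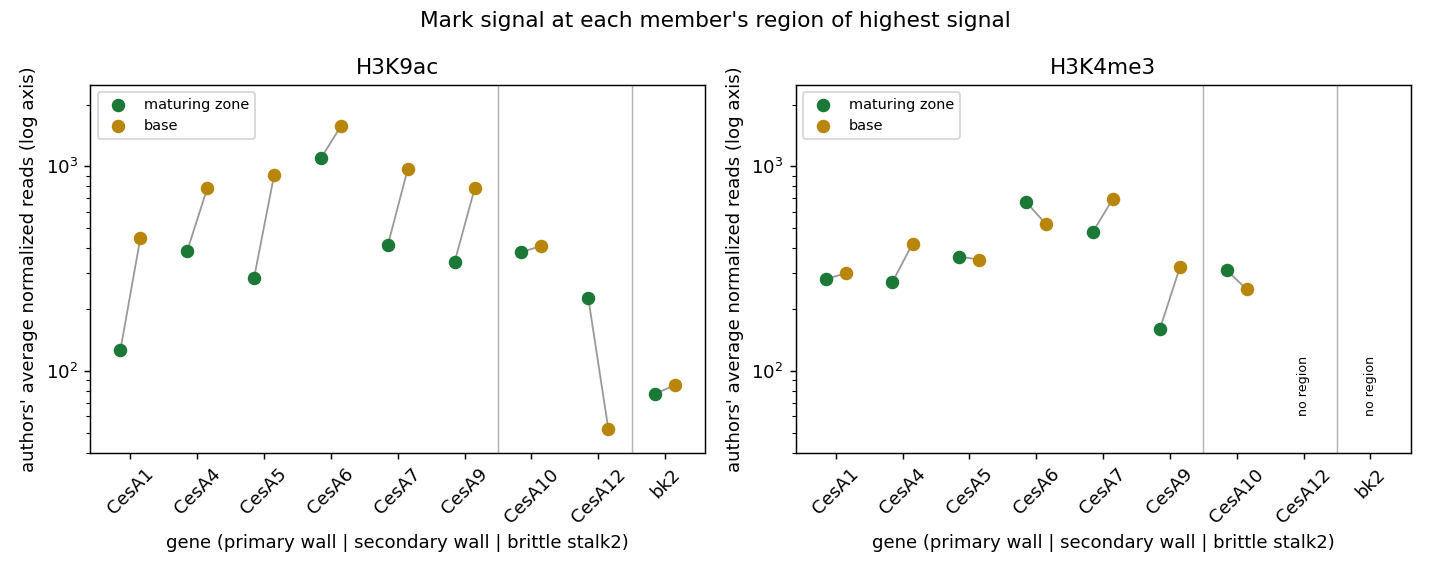
Authors' average normalized reads, on a log axis, at each member's region of highest signal for H3K9ac (left) and H3K4me3 (right), in the maturing zone (green, left of each pair) and the base (gold, right). H3K9ac is lower in the maturing zone at all 6 primary wall genes and higher at CesA12, and CesA12 and bk2 have no H3K4me3 region.

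H3K4me3, which marks the starts of transcribed genes, changed at few members. Of 8 regions next to a member 1 was lower and none higher at a deposited FDR under 0.05, where 14.3% of all H3K4me3 regions were lower and 11.3% higher. That share is near the background. The called region was that of CesA9, at chr2:161757675-161758473, with 160.3 reads in the maturing zone and 321.5 in the base, a signed fold of -2.01 in the authors' deposited table (FDR 0.0228).

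CesA1 and CesA5, whose H3K9ac losses were the largest, had nearly equal H3K4me3 averages in the zones. CesA1 averaged 281.4 in the maturing zone and 300.3 in the base (deposited FDR 0.905), and CesA5 361.9 in the maturing zone and 350.6 in the base (0.952). CesA6 averaged 670.6 in the maturing zone and 520.2 in the base (0.6), the highest maturing zone value of the set.

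CesA4 averaged 272.8 in the maturing zone and 418.8 in the base (deposited FDR 0.209), CesA10 311.2 in the maturing zone and 250.6 in the base (0.642), and the main region of CesA7 479.7 in the maturing zone and 696.3 in the base (0.296). A weak second region of CesA7, 490 bases from the first, averaged 17.0 in the maturing zone and 39.3 in the base with a deposited FDR of 0.0504, just above the threshold. Of the genes with both marks 22.9% had a highest H3K9ac region called lower and a highest H3K4me3 region not called. CesA1, CesA4, CesA5, CesA6 and CesA7 were of this kind, though whether the marks differ in their change was not tested.

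CesA12 and bk2 had H3K9ac regions but none of H3K4me3. The nearest H3K4me3 region to any CesA12 region lay 6543 bases away and was assigned to GRMZM2G142875, its neighbour in RefSeq, and the nearest to bk2 lay 23257 bases away. Of all genes tested 5.06% had H3K9ac without H3K4me3. With the genes ranked by mean RPKM and divided into 4 equal bins, the share was 5.27% in the second bin from the bottom, which held CesA12, and 3.47% in the third, which held bk2.

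**Figure D5:**
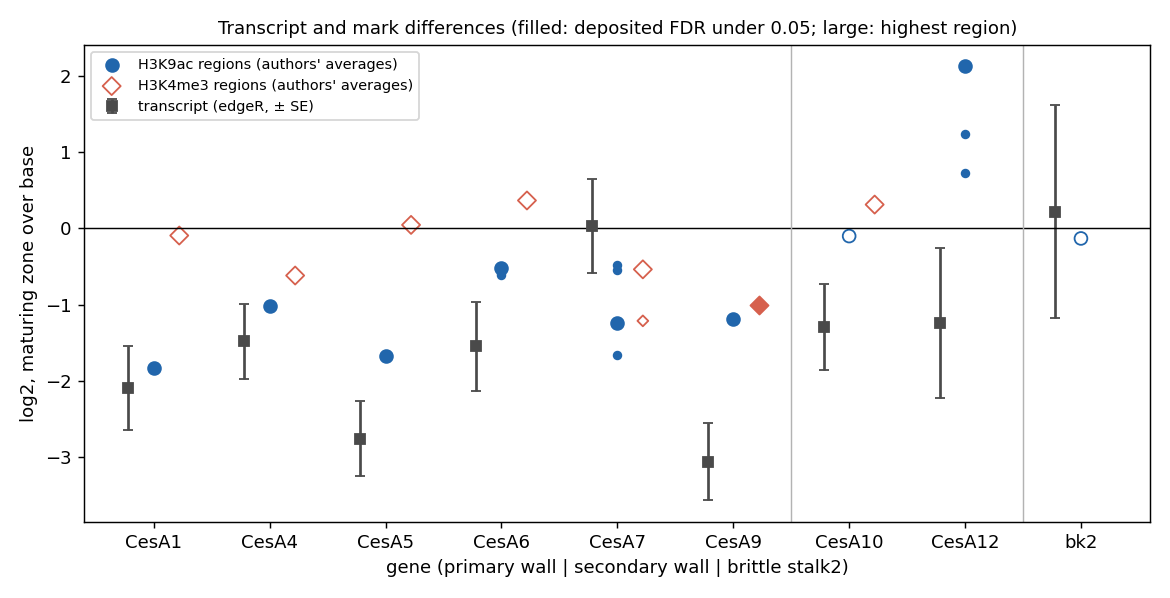
Log2 of maturing zone over base for the transcript (grey squares, edgeR with standard error) and for every H3K9ac (blue) and H3K4me3 (red) region of each member; filled region symbols have a deposited FDR under 0.05 and large ones are the highest region of the gene. Blue symbols lie below 0 for all primary wall genes, CesA7 included, and above 0 for CesA12.

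At CesA1, CesA4, CesA5, CesA6 and CesA9 both transcript means and H3K9ac were lower in the maturing zone. At CesA7 H3K9ac was lower, while the transcript difference was near 0, at 0.03 ± 0.61, with no settled sign. The orders of the transcript and H3K9ac differences were not the same. By transcript the fall was largest in CesA9, CesA5 and CesA1, and by H3K9ac in CesA1, CesA5 and CesA7. CesA4, CesA6 and CesA7 had lower H3K9ac and no transcript call, as had 20.6% of the tested genes with an H3K9ac region, counting those called higher. With the replicate block the transcripts of CesA4 and CesA6 were called lower, which leaves CesA7 as the one of these 3 without a transcript call. In that fit CesA12 was called lower too, with H3K9ac higher. Members are few and share their libraries, so no test was made of this relation.

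Other genes of the pathway were taken from lists of named genes, whose counts stand beside the 15.8% of all genes tested that edgeR called lower and the 13.5% called higher, and beside a median difference of -0.13. Of 4 further cellulose synthases tested 3 fell, and their median difference was -2.52. CesA8 had 19.5 and 33.4 TMM CPM in the maturing zone, against 243.6 and 392.0 in the base, a log2 difference of -3.59 ± 0.65 (edgeR adjusted p = 0.0186). CesA3 and CesA2 fell as well, at -2.60 and -2.43 on the log2 scale (edgeR adjusted p = 0.0488 and 0.0427), and CesA13, with 5 and 11 reads in the maturing zone and 9 and 41 in the base, was not called. With base library A or either library of the maturing zone left out, 1 of them was called. CesA genes are close relatives, and the sources used here do not say how reads shared between them were counted.

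Of 2 cellulose synthase-like genes 1 fell. CSLD1, which maize needs for normal cell division in the leaf epidermis, had 4 and 10 reads in the maturing zone, against 5159 and 4375 in the base, a log2 difference of -7.81 ± 1.29 (edgeR adjusted p = 0.0161). CslF6-1, of the family that makes mixed-linkage glucan in grass walls, had 1350 and 1014 reads in the maturing zone, against 7884 and 15861 in the base, and was not called (edgeR adjusted p = 0.15, and 0.000206 with the replicate block).

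Sucrose synthases, which make UDP-glucose from sucrose, split. Both sus1 and sh1 fell and sus2 rose. Levels of sus1 were 80.1 and 203.8 TMM CPM in the maturing zone, against 8031 and 13657 in the base, a log2 difference of -6.26 ± 1.42 (edgeR adjusted p = 0.0293). The difference was -2.36 ± 0.47 for sh1 and 2.97 ± 0.78 for sus2 (edgeR adjusted p = 0.0227 and 0.041). Levels of sus2 were low, at 4.32 and 3.16 TMM CPM in the maturing zone against 0.462 and 0.488 in the base. These came from 175 and 32 reads against 34 and 16. The sus2 call was lost under library totals and with each of the 4 libraries left out. None of the 3 genes was called when library A of the maturing zone was left out.

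Of 10 expansins tested, proteins that loosen the wall during growth, 6 fell and none rose, with a median difference of -4.70. Reads of expB2 were 1 and 1 in the maturing zone, against 1351 and 2364 in the base. Reads of expB3 were 0 and 2 in the maturing zone, against 770 and 1156 in the base, and those of expA4 were 0 and 2 against 689 and 743 (edgeR adjusted p from 0.0131 to 0.0218 for these 3).

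Of 3 brittle stalk2-like genes tested 2 fell, Bk2L7 at -5.69 ± 1.22 and Bk2L3 at -2.63 ± 0.61 (edgeR adjusted p = 0.0261 and 0.0303). Bk2L3, the more abundant, had 40.3 and 20.1 TMM CPM in the maturing zone, against 218.4 and 157.1 in the base. With base library A or either library of the maturing zone left out, 1 of these was called. Of 7 endoglucanases tested 2 fell, with a median of -3.19 over the 7. Cel21 had 0 reads in the maturing zone and 64 and 81 in the base, at least 23-fold lower against 3 reads over the zone, and Cel18/34 had 2 and 1 reads against 447 and 845. The endoglucanase count was 1 without maturing zone library A and 6 with the replicate block, a fit that called 40.4% of all genes lower.

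Among 5727 named genes outside the set, those whose centred log2 profile over the 4 libraries lay nearest to the mean of the primary wall members were rop2, elfa2 and cl38374_1a, at Euclidean distances of 0.0462, 0.0597 and 0.122. The nearest to the mean of CesA10 and CesA12 were IDP723, EREB156 and TIDP3268, at 0.116, 0.188 and 0.198. Distances over 4 libraries carry little information on a profile, and no test was made of them.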

How the data were processed

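Members and gene lists were chosen with earlier results of these data known. Tools listed in the submitters' processing notes, with no roles given, are edgeR, DiffBind 1.10.0, Trimmomatic 0.32 and CASAVA 1.8.2; the build is B73 RefGen_v3. Aligner, counter, peak caller, kit strand and the scaling of the mark averages: not given in the sources used here. Per the file headers, the RNA table holds exon read counts and the authors' RPKM for libraries of 50 bp reads, with a signed fold score and an FDR-corrected p-value. The deposited mark tables hold the authors' average normalized read signal per zone, with a signed fold score and an FDR p-value. By its header the fold is base over maturing zone, but the sign was positive where the maturing zone average was higher, and ratios matched to within 0.0072 on the log2 scale over 76642 regions.

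Counts were tested with edgeR 4.0.16 (R 4.3.3): filterByExpr with minimum count 10 (26787 genes), TMM scaling, quasi-likelihood test, Benjamini-Hochberg adjusted p under 0.05. DESeq2 1.42.0 was an alternative. The scripts were checked on simulated counts drawn without a shift between the letters, so that check does not cover such a shift. Mark calls are the deposited FDR under 0.05, with no test refitted. SE comes from the difference and its F statistic. Replicates are separate pools per the labels' protocols. Same-lettered libraries were treated as pairs in a second fit because base pieces came from the same leaves, a choice carried over from an earlier analysis that had seen that fit's counts; the labels do not tie a letter to a pool, and the A minus B differences correlated between zones at r = 0.794 across genes.

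All 10 members are named, and of each list the 3 called genes with the largest change. Lists rest on names that RefSeq (Zm-B73-REFERENCE-NAM-5.0) pairs with 18986 features; the brittle stalk2-like and endoglucanase lists were added after that table was read, and rules for xylan synthesis, other partners and xylem proteases matched no gene. Nearest profiles used log2(TMM CPM + 0.5).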

Additional observations from a re-analysis of the deposited data

How the results depend on the processing

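With 2 libraries per zone, calls were few and often rested on single libraries; in leaving one out, the lone library is assumed to vary like those of the other zone. Left out in turn, the libraries gave 1 to 2 members called lower and 0 to 1 called higher (bk2), 1 to 2 primary wall genes lower, 1 to 3 further cellulose synthases, 1 to 2 cellulose synthase-like genes, 0 to 2 sucrose synthases lower and 0 higher, 1 to 2 brittle stalk2-like genes and 1 to 3 endoglucanases. Library totals gave 6 members lower (5 primary wall, 1 other), 2 cellulose synthase-like genes and 6 endoglucanases lower, and 0 sucrose synthases higher. The replicate block gave 7 members (5 and 2), 2 cellulose synthase-like genes and 6 endoglucanases lower, and no count filter gave 2 cellulose synthase-like genes. The difference of CesA7 turned under library totals (-1.06), no count filter (-0.14) and the replicate block (-0.0499), and ranged from -0.58 (maturing zone library A left out) to 0.41 over the libraries left out. That of bk2 turned under library totals (-0.98) and ranged from -1.26 (maturing zone library B left out) to 3.68 (base library B left out), and that of CesA12 from -2.30 to 0.37. Of the single members' values 58 kept direction and call, 8 gained and 6 lost a call, and 9 turned. Of the 11 H3K9ac regions lower, 6 were the highest of their gene and 6 had a fold of at least 2. Of the 3 higher, 1 was the highest of its gene, and it was the sole 1 left under a limit of 10000 bases around that region, chosen after seeing the data. At FDR under 0.01, 0 H3K4me3 regions were called. In TMM-scaled RPKM 1 neighbouring pair in the base order was separate. The cause of these shifts was not tested. The promoter motif search and protein comparison were not run for want of sequences. A limit on distance from the gene was not run for want of distances, and the limit above counts from the highest region. The other counts stayed within 1.5 times.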
